A study of Mus musculus with 33 samples.

Results

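The clustered protocadherins are neuronal cell adhesion genes that lie side by side on mouse chromosome 18 in 3 subclusters, Pcdha, Pcdhb and Pcdhg. The members were the genes of the GENCODE vM1 annotation of mm9 whose names begin with Pcdha, Pcdhb or Pcdhg, which gave 25 of 37310 annotated genes. Of these, 24 were protein-coding and 1, Pcdhb20, was annotated as a pseudogene. Pcdha (chr18:37089939-37347311) held 2 genes, Pcdhb (chr18:37424652-37681073) held 22 and Pcdhg (chr18:37833989-38001527) held 1. The annotation joins most isoforms of Pcdha into the gene Pcdha11 and those of Pcdhg into Pcdhgc5, so 41 annotated starts were also followed, 10 in Pcdha, 22 in Pcdhb and 9 in Pcdhg. These starts carry the transcript names of the annotation, such as Pcdhgc5-203, and a transcript name does not identify an isoform of the protein family.

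Each Pcdha and Pcdhg variable exon has its own promoter and is spliced to constant exons shared by its subcluster, whereas each Pcdhb gene is a single exon. A neuron uses a small set of these promoters, and the proteins on neighbouring membranes bind to their own kind, which lets neurites of one cell avoid each other. Promoter choice in this locus is known to involve DNA methylation, CTCF, cohesin and repressive histone methylation. Uhrf1 is the factor that brings the maintenance DNA methyltransferase Dnmt1 to newly replicated DNA and that also binds methylated histone H3.

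ChIP-seq maps a histone mark or a protein along the genome with an antibody. It was done here in wild type (WT) cells and in cells with a knockout (KO) of Uhrf1. The WT cells were E14 mouse embryonic stem cells (mESC), and both lines had come from another laboratory and were grown with leukemia inhibitory factor on gelatin or on plates coated with embryonic fibroblasts. H3K4me3, found at active promoters, and H3K27me3, set by Polycomb, were mapped in WT and KO mESC and in embryoid bodies (EBs), differentiating aggregates of these cells, at weeks 1, 2 and 3. H3K9me3, a mark of heterochromatin, and the pluripotency factors Oct4, Sox2 and Nanog were mapped in WT and KO mESC, and Uhrf1 in WT mESC. Of 33 samples, 25 had a list of enriched regions and 8 were inputs, not analysed here. Each combination of genotype, stage and target held 1 library and a single KO line was used, so genotype, line and library cannot be told apart and no difference could be set against replicates. EBs hold many cell types, so fewer cells with a mark and less mark per cell cannot be told apart either.

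A start was called marked when an enriched domain reached within 2 kb of it for H3K4me3, or within 5 kb for H3K27me3 and H3K9me3. The lists held 11509 to 39898 domains for H3K4me3, 722 to 9488 for H3K27me3, and 11285 and 3118 for H3K9me3 in WT and KO. Domain calling used bins of 1300 bp for H3K4me3 in mESC but 350 to 400 bp in EBs, so a change between mESC and EBs coincides with a change of bin. The mean count is the mean number of reads per bin of a domain, and it orders domains within a list only. H3K4me3 lay at the gene starts of 5 of 6 stem cell markers in both mESC lists, the exception being Esrrb, and at 4 to 6 of 6 EB markers in the EB lists. These markers hardly separate the stages, since the stem cell markers were also marked in 5 of 6 cases in the lists of weeks 2 and 3 (4 in WT and 2 in KO at week 1) and the EB markers in 4 of 6 in both mESC lists. The gene start of Uhrf1 itself carried H3K4me3 in all 8 lists, KO included, which does not test the knockout.

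In WT mESC, H3K4me3 lay at 16 of the 25 members (64.0%, Wilson 95% interval 44.5 to 79.8), against 63.2% of 22367 protein-coding genes. In KO mESC it lay at 5 of 25 (interval 8.86% to 39.1%), against 57.0% of protein-coding genes. Intervals here cover counting only, and neighbouring members can share a domain. Of the 16 members marked in WT mESC, 5 were also marked in KO mESC (31.2%), whereas 88.0% of all marked protein-coding genes were. Of the 9 members unmarked in WT mESC, 0 were marked in KO, against 3.75% of unmarked protein-coding genes. The 34 other protein-coding genes that start in the cluster or within 500 kb of it had H3K4me3 at 32 starts in WT and 30 in KO. Those marked in WT only were Gm10545, which starts inside Pcdha, and Arap3. The 12 protocadherin genes outside the cluster had it at 10 and 9 starts, and Pcdh1 and Pcdh12 belong to both of these sets.

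The mESC difference lay in Pcdha and Pcdhb. H3K4me3 was found at 9 of 10 Pcdha starts in WT mESC and at 2 in KO, and at 13 of 22 Pcdhb starts in WT and 3 in KO. The mark was at 52.0% of protein-coding starts in WT and 46.3% in KO. All 9 Pcdhg starts were marked in both. Over the 41 starts the counts were 31 and 14, so that 45.2% of the marked starts stayed marked, against 84.7% of marked starts of all protein-coding genes. The 2 Pcdha starts marked in both genotypes were Pcdha3-201 and Pcdha11-208. The 3 Pcdhb genes were Pcdhb18, Pcdhb19 and the pseudogene Pcdhb20, which are neighbours near the distal end of their subcluster.

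The mESC domains show how these calls arose from a few long regions. In WT, 1 domain of 35.1 kb (chr18:37086401-37121500, mean count 8.88) held the first 4 Pcdha starts and 1 of 24.7 kb (chr18:37156601-37181300, mean count 9.67) held the next 4. In KO 1 domain of 24.7 kb (chr18:37103301-37128000, mean count 5.09) was called over these starts. By mean count these WT domains stood at the 11.4 and 17.8 percentiles of their list and the KO domain at 1.76. The median percentile was 19.5 over the 14 WT domains of the cluster and 14.1 over the 6 KO domains, low in both lists. Over the distal Pcdhb genes a WT domain of 42.9 kb faced a KO domain of 19.5 kb, with mean counts of 8.44 and 5.30. Over the first 6 Pcdhg starts the domains were alike in extent, with 131 kb in WT and 136 kb in KO from the same first position. Their mean counts were 13.6 and 9.14. Both began near the start of Slc25a2 and held that of Taf7, a gene of the general transcription machinery. Slc25a2 and Taf7 lie between Pcdhb and Pcdhg. The KO domain of 136 kb ranked 31 of 11509 by length. The 3 most distal Pcdhg starts lay in a second domain, less alike in extent, of 89.7 kb in WT and 55.9 kb in KO. Its mean counts were 11.1 and 8.68.

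**Figure D1:**
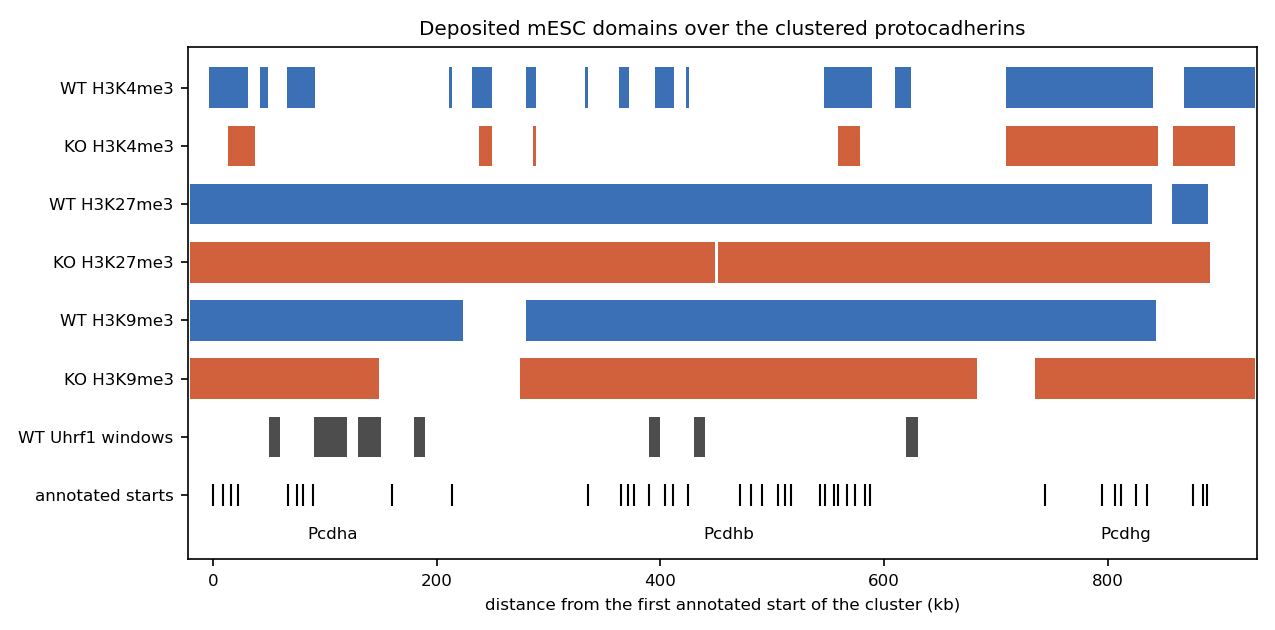
Domains called in WT (blue) and KO (orange) mESC over the cluster, Uhrf1 windows in WT mESC (dark grey) and annotated starts (ticks), by distance in kb from the first annotated start. Domains that run on beyond the plotted range end at its edge. H3K4me3 domains cover 33.0% of Pcdha and 28.3% of Pcdhb in WT, 14.1% and 7.60% in KO, and most of Pcdhg in both. H3K27me3 spans 95.7% of the cluster in WT and 97.5% in KO.

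In EBs KO had more marked members than WT at each week, the opposite of mESC, and this difference between stages was not tested. At week 1, 4 members were marked in WT and 9 in KO, against 62.1% and 57.0% of protein-coding genes. At week 2 the counts were 14 and 18 (65.7% and 64.5% of protein-coding genes), and at week 3 they were 16 and 22 (66.2% and 65.8%). Of the members unmarked in WT, KO marked 6 of 21 at week 1, 5 of 11 at week 2 and 6 of 9 at week 3. The same shares over all unmarked protein-coding genes were 3.10%, 6.61% and 6.05%. All 16 members marked in WT at week 3 were marked in KO as well, against 96.3% of protein-coding genes.

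As a percentage of the 25 members, KO minus WT was -44.0 points in mESC and, in EBs of weeks 1 to 3, 20, 16.0 and 24.0 points. The mean over the 4 stages was 4.0 points (SD 32.2), and an exact two-sided sign-flip permutation test over stages gave p = 1.0, where the smallest p this design allows is 0.125. The 4 stages had 1 library each, and this test does not address the difference at a single stage.

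By subcluster, the EB difference was found in Pcdha at weeks 2 and 3 and in Pcdhb at all 3 weeks. Pcdha had 2 marked starts in WT and 1 in KO at week 1, 2 and 7 at week 2, and 3 and 8 at week 3. Pcdhb had 3 and 8, 13 and 15, and 14 and 19. Pcdhg had 9 and 7, 9 and 8, and 9 and 9. The EB counts were lower when domains below the median score were left out. Pcdha then had 1 and 1, 1 and 0, and 1 and 1, Pcdhb 0 and 0, 3 and 5, and 0 and 4, and Pcdhg 4 and 3, 5 and 7, and 6 and 8. The Pcdha difference at weeks 2 and 3 and the Pcdhb difference at week 1 thus rest on domains with scores below the median. Over all protein-coding starts the shares in WT and KO were 48.2% and 43.1%, 53.7% and 52.1%, and 53.8% and 53.6%. All Pcdhg starts were marked in WT at every stage when all domains were kept, and the few Pcdhg starts unmarked in KO were Pcdhgc5-201 and Pcdhgc5-202 at week 1 and Pcdhgc5-210 at week 2.

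**Figure D2:**
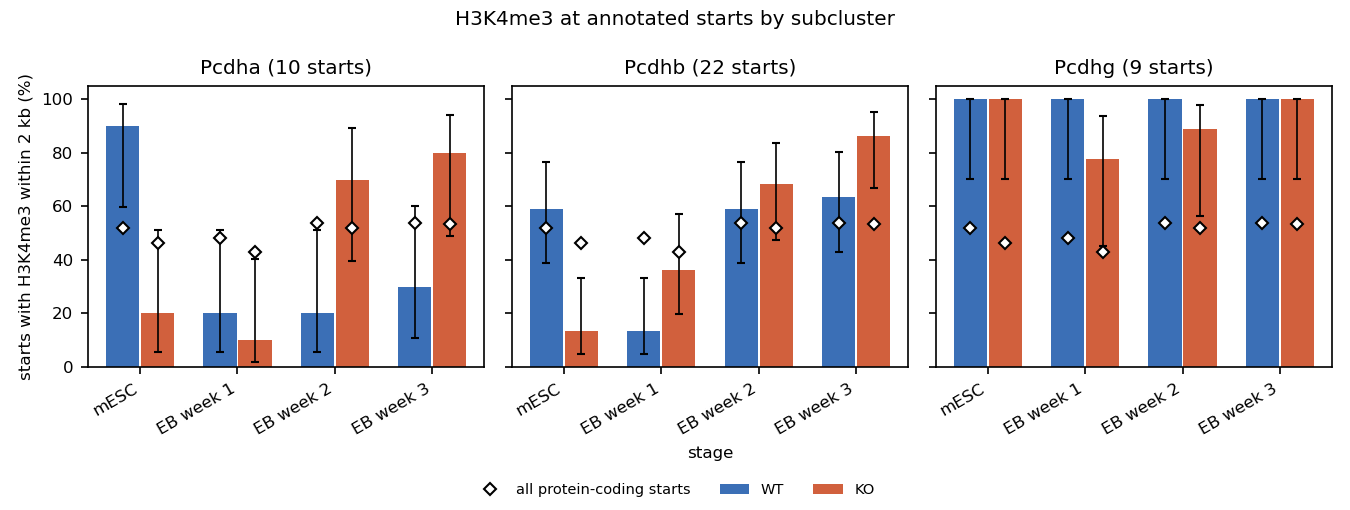
Percentage of annotated starts with H3K4me3 within 2 kb, by stage, for WT (blue) and KO (orange), with Wilson 95% intervals over starts and 1 library per bar. Diamonds give all protein-coding starts. Pcdha and Pcdhb have fewer marked starts in KO than WT mESC and more in KO at weeks 2 and 3, while at least 7 of 9 Pcdhg starts are marked in each list. All deposited domains count here, short or weak ones included, and the Pcdha difference in EBs is absent with domains at or above the median score.

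The WT series itself was lowest at week 1. Of the 16 members marked in WT mESC, 4 were marked at week 1 (25.0%), against 92.4% of protein-coding genes, namely Pcdhb1, Pcdhb21, Pcdhb22 and Pcdhgc5. At week 3, 12 of the 16 were marked, against 95.7% of protein-coding genes, with 4 of the 9 unmarked in WT mESC, against 15.7%. In KO, 17 of the 20 members without the mark in mESC had it at week 3 (85.0%), against 24.3% of protein-coding genes.

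The 17 starts marked in WT mESC but not in KO mESC were then followed through the EBs. In KO they were marked in 4 cases at week 1, 13 at week 2 and 15 at week 3, against 32.9%, 57.0% and 65.5% of the 3237 protein-coding starts with the same mESC calls. In WT the counts were 5, 9 and 10, against 52.6%, 58.7% and 65.8%. The 2 that stayed unmarked in KO at week 3 were Pcdha11-209 and Pcdhb8. Of the 10 starts marked in neither mESC list, KO marked 2, 4 and 7 along the weeks and WT 0, 3 and 4. Of the 18574 such protein-coding starts, KO marked 5.15%, 11.5% and 10.7% and WT 6.42%, 14.8% and 11.8%.

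Single members differed in how often they were marked. Their mean counts are given for each list and do not trace a course over stages, since bins were 1300 bp in mESC and 350 to 400 bp in EBs. Pcdhb21 and Pcdhb22, the last genes of their subcluster, were marked in 7 of 8 H3K4me3 lists, all but KO mESC. Pcdhb22 had mean counts of 8.44 in WT mESC, 12.3 and 17.7 in WT and KO EBs of week 1, 15.5 and 6.48 at week 2, and 11 and 16.8 at week 3. Pcdhb19 and Pcdhb20 were also marked in 7 lists, and the one they missed was WT week 1. Pcdhb1, the first of its subcluster, was marked in all 4 WT lists (mean counts 15.5, 10.8, 12.8 and 13.0) but in KO only at weeks 2 and 3 (11 and 15.8).

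Pcdhb11 was unmarked in both mESC lists and had the highest mean count of any start at week 2 in WT (21.1) and at week 3 in WT (19) and KO (23.4). At week 2 in KO its mean count was 9.89, and at week 1 it was marked in KO (9.33) and not in WT. Pcdhb15 was unmarked in all 4 WT lists and marked in KO at weeks 2 and 3, with mean counts of 9.25 and 6.28. Pcdha11-208 held the highest mean count at week 2 in KO (18.7) and was unmarked in WT at all 3 weeks. Pcdha11-201, Pcdhb9 and Pcdhb13 had no H3K4me3 domain in any of the 8 lists.

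The first Pcdha start, Pcdha11-204, was marked in WT mESC (mean count 8.88), then in no WT EB list, and in KO only at weeks 2 and 3 (9.50 and 18.7). The last, Pcdha11-202, lies apart from the others and was marked in more lists. It was marked in all 4 WT lists (mean counts 13.5, 10.1, 8.35 and 7.69) and in every KO list but mESC (5.82, 4.67 and 7.71). The 3 most distal Pcdhg starts, Pcdhgc5-208, Pcdhgc5-205 and Pcdhgc5-203, were marked in all 8 lists. In WT they had a mean count of 11.1 in mESC and 18.8, 17.0 and 17.9 in EBs. In KO it was 8.68 in mESC, 10 to 13.0 at week 1, 11.6 at week 2 and 15.6 at week 3.

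**Figure D3:**
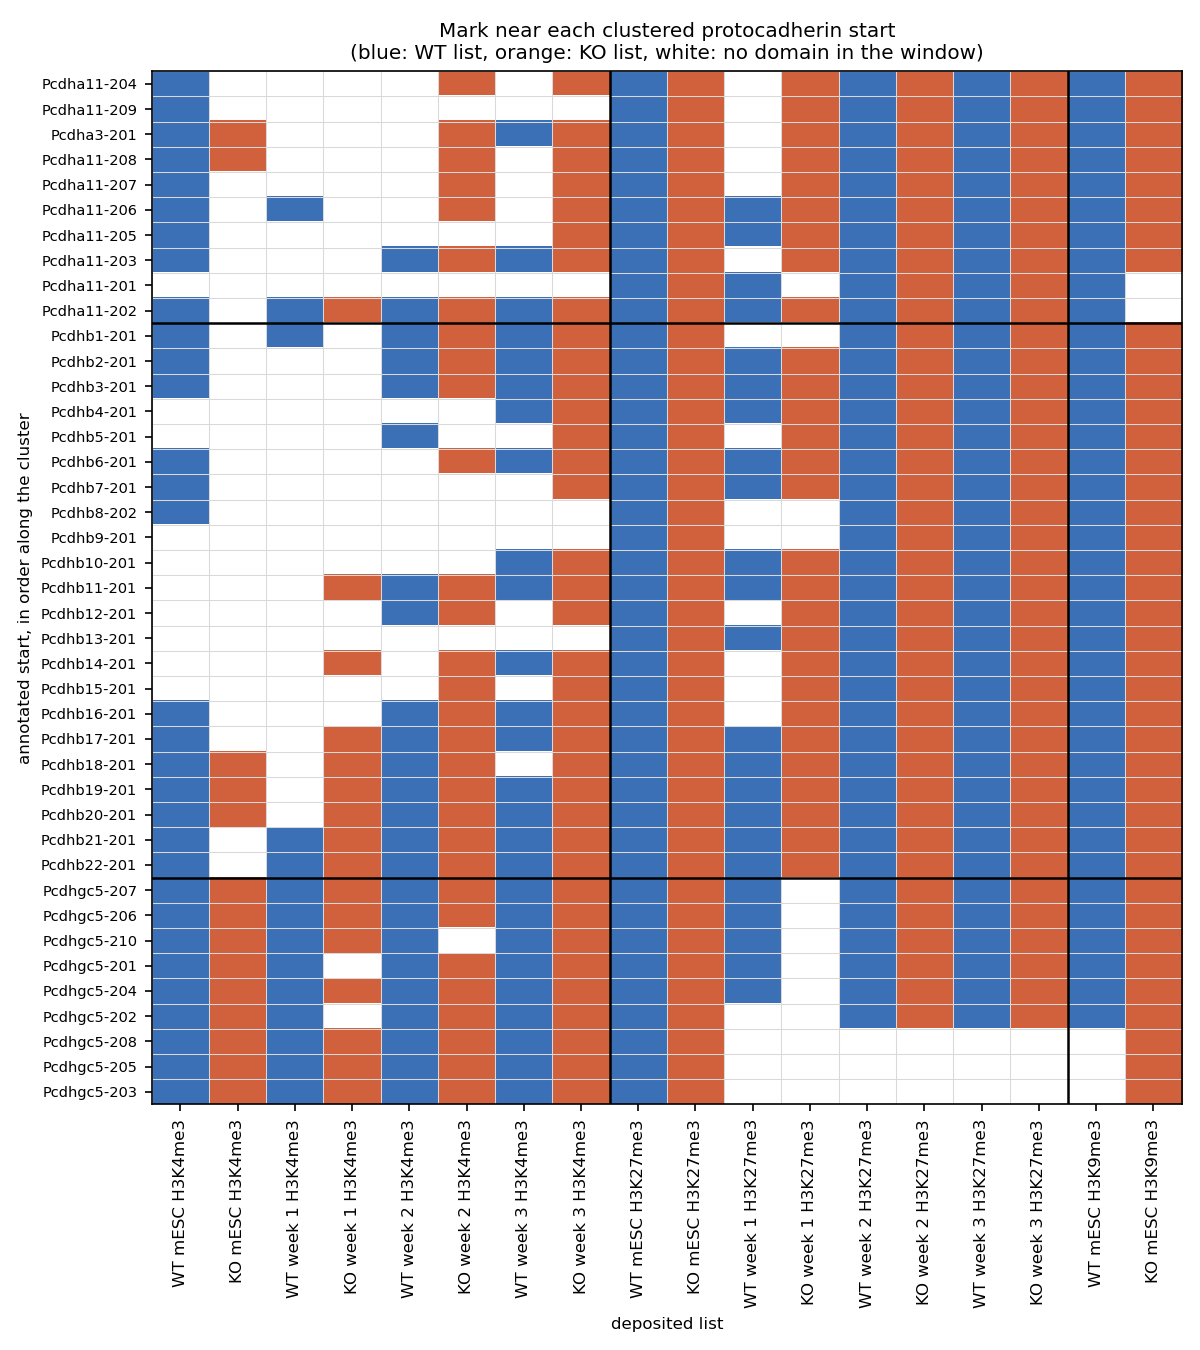
Rows are the 41 annotated starts in order along the cluster, columns the 18 histone lists, and a filled cell is a start with a domain of that mark within its window (blue WT, orange KO). In H3K4me3, KO mESC is empty over most Pcdha and Pcdhb starts and KO week 3 is filled at 36 of 41, while in H3K27me3 the last 3 Pcdhg starts are filled in mESC only.

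Most EB domains in the cluster were short, counting those away from starts as well. Their median length was 1.4 to 1.60 kb at weeks 1 to 3, at the 22.5 to 33.4 percentile of length in their lists. The medians were 15.6 kb in WT mESC and 22.1 kb in KO mESC. When only domains at or above the median score of their list were kept (more bins give a higher score), the WT and KO counts of members were 1 and 1 for week 1 EBs, 3 and 6 for week 2, and 1 and 5 for week 3. In mESC they were 14 and 5. Lists shortened to equal numbers gave 14 and 5 members in mESC, then 4 and 9, 10 and 18, and 16 and 21 over the weeks.

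The share of the cluster inside H3K4me3 domains moved in the same order in mESC and at weeks 2 and 3. It was 39.1% in WT and 27.2% in KO mESC. In EBs it was 8.64% and 7.33% in week 1, 13.6% and 17.6% in week 2, and 16.2% and 23.8% in week 3. At week 1, where KO had more marked members, it thus had the smaller share. Over the genome the shares were 8.14% and 7.10%, 4.03% and 2.76%, 7.75% and 5.82%, and 6.10% and 6.24%. Pcdhb showed the widest ratio in mESC, with 28.3% in WT and 7.60% in KO, and Pcdhg had 82.9% and 92.2%.

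H3K27me3 was called across the cluster in both genotypes. All 25 members had H3K27me3 in WT mESC and all 25 in KO mESC, where the mark was found at 34.9% and 7.57% of protein-coding genes. Of protein-coding genes marked in WT mESC, 15.5% were marked in KO mESC. Of the 9 protocadherin genes outside the cluster with H3K27me3 in WT mESC, 0 had it in KO, while the 7 flanking or intervening genes with it in WT all had it in KO. The latter include Gm6756, Gm10545, Slc25a2, Taf7 and 3222401L13Rik, which start within the same domains as the members. Only Cd14 and Tmco6 start outside these domains.

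In WT mESC a single domain of 956 kb (chr18:36973801-37929600) covered Pcdha, Pcdhb and most of Pcdhg. Its mean count of 13.2 stood at the 98.4 percentile of 8161 domains and its length ranked 53. A second domain of 32.4 kb held the 3 most distal Pcdhg starts. In KO mESC, domains of 576 kb (chr18:36963001-37539000) and 440 kb (chr18:37542001-37981500) covered 99.7% of the large WT domain. That share ranked 6 among 259 WT domains of at least 500 kb, of which 19 overlapped any KO domain and 14 were covered by at least 50%.

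The KO mESC domains had mean counts of 0.915 and 3.30, with bins of 1500 bp, at the 50 and 89.8 percentiles of their list. The large WT domain had 13.2, with bins of 1800 bp, and the medians of the whole lists were 0.914 in KO and 4.93 in WT. In an alternative chosen after seeing the data, KO domains below the lowest WT mean count of 3.04 were left out, and 15 of 25 members stayed marked, those of the distal domain from Pcdhb9 onward, against 0.738% of protein-coding genes. Pcdha and Pcdhb1 to Pcdhb8 lie in the weaker KO domain. The study's methods scale reads to the mapped total but do not say so of these columns, and bins differed, so the values set the lists side by side and do not measure a change of level.

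**Figure D4:**
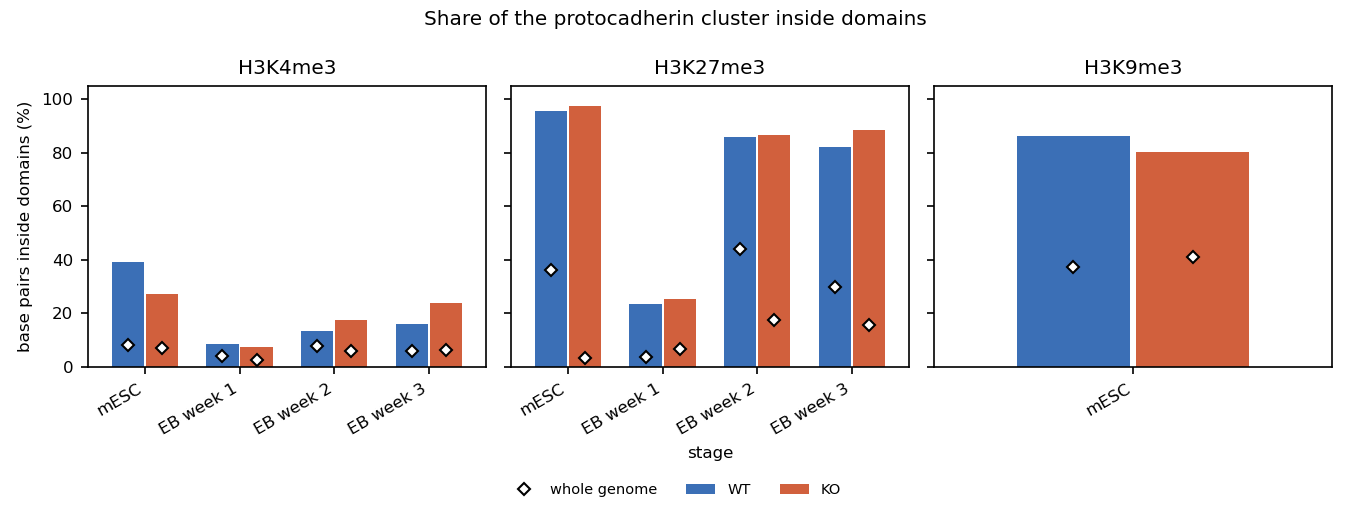
Percentage of the base pairs of the cluster inside domains, by stage, for WT (blue) and KO (orange), with diamonds for the whole genome and 1 library per bar. H3K27me3 domains cover 82.2% to 97.5% of the cluster in mESC and at weeks 2 and 3 in both genotypes, and 23.4% and 25.3% at week 1.

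At week 1 H3K27me3 over the cluster was called as 11 domains in WT and 9 in KO, which covered 23.4% and 25.3% of it. Over the genome the share in domains was 3.81% in WT and 6.78% in KO, against 36.1% in WT mESC, and the median cluster domain stood at the 68.8 and 70.0 percentiles of length in its list. Members with the mark numbered 15 in WT and 21 in KO, against 20.5% and 21.1% of protein-coding genes. Of the 15, 14 were marked in KO, against 72.3% of protein-coding genes. The subclusters split here. Pcdha had 4 marked starts in WT and 9 in KO, Pcdhb 14 and 19, and Pcdhg 5 and 0, against 16.0% and 17.9% of protein-coding starts. The Pcdhg starts marked in WT lay in or within 5 kb of 1 domain of 75.2 kb (chr18:37838501-37913750, mean count 10.4) that had no KO counterpart.

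At weeks 2 and 3 all 25 members again had H3K27me3 in both genotypes, against 29.8% and 24.1% of protein-coding genes at week 2 and 33.2% and 19.5% at week 3. Of all protein-coding genes marked in WT, 48.8% at week 2 and 49.9% at week 3 were marked in KO. At week 2 the largest domains were 765 kb in WT and 783 kb in KO, with mean counts of 7.49 and 7.14. At week 3 mean counts over the cluster were 10.1 to 11.9 in WT and 5.03 to 5.44 in KO, and 0 members stayed marked when KO domains below the lowest WT mean count (6.34) were left out, against 3.63% of protein-coding genes. The median of the whole KO list at week 3 was 5.14, below that limit.

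The 3 most distal Pcdhg starts stood apart. They had H3K27me3 in both mESC lists and in none of the 6 EB lists, and kept H3K4me3 throughout. The other 38 starts had H3K27me3 at weeks 2 and 3 in both genotypes. At these weeks the H3K27me3 domain ended at chr18:37929600 (week 2, both genotypes) or chr18:37926000 (week 3, WT), between Pcdhgc5-202 and Pcdhgc5-208, or at chr18:37924200 (week 3, KO), just before Pcdhgc5-202.

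Promoters with both H3K4me3 and H3K27me3 are called bivalent, a state known from developmental genes held ready in stem cells. In WT mESC 16 of 25 members were bivalent, against 18.3% of protein-coding genes, and in KO mESC 5, against 4.29%. The remaining 9 in WT and 20 in KO had H3K27me3 alone, and none was without both marks when all domains were kept. Of the 16, 5 were bivalent in KO and 11 had H3K27me3 alone, whereas 14.6% of all protein-coding bivalent genes were bivalent in KO. These KO classes count the weaker H3K27me3 domain over Pcdha and Pcdhb1 to Pcdhb8, with a mean count of 0.915. Without KO domains below the lowest WT mean count (3.04), 15 of 25 members kept H3K27me3 in KO mESC. The classes were not recounted that way, and the other members would lack H3K27me3. In EBs 3 members were bivalent in WT and 8 in KO at week 1 (15.2% and 10.7% of protein-coding genes). The counts were 14 and 18 at week 2 (13.7% and 13.4%) and 16 and 22 at week 3 (19.6% and 11.3%). The KO count at week 3 also rests on H3K27me3 domains below the lowest WT mean count of that stage (6.34).

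H3K9me3 lay at all 25 members in both WT and KO mESC, against 29.7% and 40.1% of protein-coding genes. It covered 86.4% of the cluster in WT and 80.5% in KO, against 37.2% and 40.9% of the genome. Pcdhb was covered at 100% in both. Pcdha was covered at 87.1% in WT and 57.7% in KO, and its last 2 starts, Pcdha11-201 and Pcdha11-202, had the mark in WT only. Pcdhg was covered at 59.2% in WT and 100% in KO, and the 3 most distal Pcdhg starts had the mark in KO only. Mean counts were 17.4 and 14.9 in WT and 10.1 to 11.8 in KO, and the number of members fell to 3 when KO domains below the lowest WT mean count (10.3) were left out, against 33.6% of protein-coding genes. This alternative too was chosen after seeing the data. The 3 were Pcdha11, Pcdha3 and Pcdhgc5, of which Pcdha11 and Pcdhgc5 join many starts. Only the Pcdhb genes dropped out, with a mean count of 10.1, just below the limit.

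All 3 marks were called together at 16 members in WT mESC, against 7.22% of protein-coding genes, and at 5 in KO mESC, against 2.03%. By start, Pcdha had 9 and 2, Pcdhb 13 and 3, and Pcdhg 6 and 9, against 5.16% and 1.56% of protein-coding starts. The KO calls include H3K27me3 and H3K9me3 domains with mean counts below every WT domain of the same mark. Calls of different marks in the same place come from separate libraries of many cells, so that these data do not show the marks on the same chromosome.

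Uhrf1 itself was mapped in WT mESC as enriched 10 kb windows. Of these, 10 fell in the cluster and covered 11% of it, against 3.79% of chromosome 18 and 5.14% of the genome. Pcdha held 7 (27.2% of its length), Pcdhb 2 (7.80%) and Pcdhg 0, with 1 between Pcdhb and Pcdhg. Few lay near starts. Pcdhb5 and Pcdhb6 were the 2 members with a window within 5 kb (8.0% of members, against 6.10% of protein-coding genes), and both are near the same window (chr18:37480001-37490000). Among starts Pcdha11-203 had one as well, which gave 3 of 41, against 4.40% of protein-coding starts.

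All 10 windows lay in H3K27me3 domains of WT and KO and in H3K9me3 domains of WT, and 9 lay in H3K9me3 domains of KO. H3K4me3 domains of WT touched 3 of the windows and those of KO touched 0. Of the starts near a window, Pcdhb6 and Pcdha11-203 had H3K4me3 in WT mESC and not in KO, and Pcdhb5 had it in neither. The other 15 of the 17 starts marked in WT mESC and not in KO had no window within 5 kb. The 9 Pcdhg starts, marked in both genotypes, had no window within 5 kb.

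Summits of the pluripotency factors in the cluster differed between WT and KO mESC in the direction of the whole lists. Oct4 had 6 summits in WT and 0 in KO (12898 and 576 in the genome), Sox2 2 and 18 (5190 and 20755), and Nanog 2 and 8 (2390 and 10632). Per Mb of cluster, Sox2 had 19.7 summits in KO, against 7.82 per Mb of genome, and Nanog 8.78, against 4.0. In WT, Oct4 had 6.58, against 4.86, Sox2 2.19, against 1.95, and Nanog 2.19, against 0.900. The KO summits included low ones, with Sox2 heights from the 3.27 to the 89.2 percentile of their list and Nanog heights from 8.37 to 84.6. Pcdhg held 12 of the 18 Sox2 summits and 6 of the 8 Nanog summits in KO. Its starts carried H3K4me3 in both genotypes.

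The tallest summits lay in distal Pcdhg. About 6.05 kb beyond Pcdhgc5-202, at chr18:37931281, Oct4 had a summit of 72 reads in WT, at the 88.2 percentile of its list. Sox2 there had 27 reads in WT and 40 in KO, and Nanog 17 and 25. Near chr18:38000526, at the distal end of Pcdhg, Oct4 had 64 reads in WT, Sox2 27 in WT and 42 in KO, and Nanog 19 in KO only. Heights were not scaled between lists, whose medians were 37.0 and 22 reads for Oct4, 22 and 18 for Sox2, and 21.0 and 12.0 for Nanog.

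**Figure D5:**
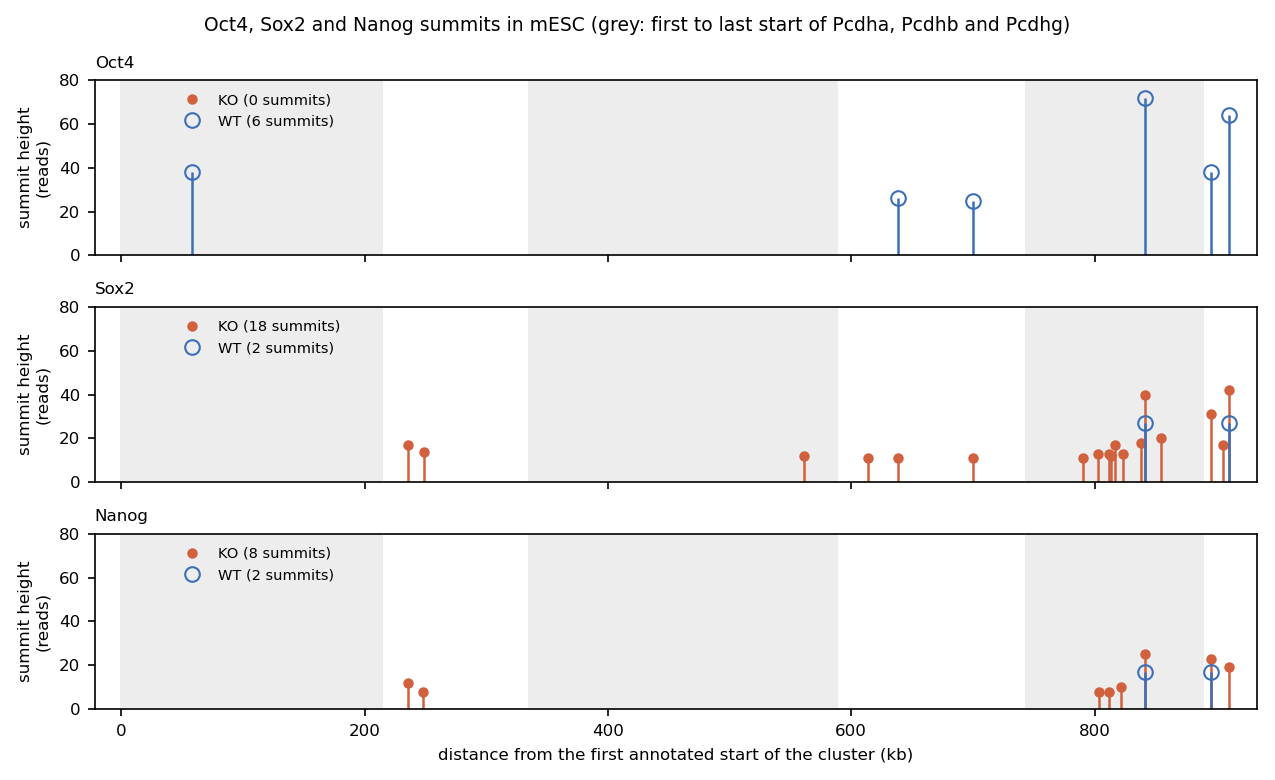
Height in reads of each summit in mESC by distance in kb from the first annotated start (WT open blue circles, KO filled orange circles). KO has 18 Sox2 and 8 Nanog summits, most of them over Pcdhg, and no Oct4 summit, while WT has 6, 2 and 2 for Oct4, Sox2 and Nanog.

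The starts were also compared by base composition in the 300 bp from 250 before to 50 after each start. CpG observed over expected measures how far CpG, the target of DNA methylation, is depleted. Its median was 0.513 over the 41 starts, 0.689 in Pcdha, 0.419 in Pcdhb and 0.434 in Pcdhg, against 0.534 over 22362 protein-coding gene starts. The 4-letter word CGCT, the core of a sequence element shared by many protocadherin promoters, was present on either strand at 40 of 41 starts (97.6%), against 67.5% of protein-coding gene starts. The start without it was Pcdhgc5-202, which had no CpG in this window. In KO mESC the 14 marked starts had a median of 0.416 and the 27 unmarked ones 0.562, whereas in WT mESC the 31 marked starts had 0.562 and the 10 unmarked ones 0.419. Subcluster and composition go together here, and the part of either in the H3K4me3 calls was not tested.

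Of 24 genes known to regulate the locus or to partner its proteins, 22 had H3K4me3 in WT mESC and 22 in KO mESC. These were not the same genes, since Stag1 was unmarked in WT, Ret in KO and Dnmt3a in both. Each EB list marked 23 or 24. Ctcf, the chromatin protein Smchd1, the H3K9 methyltransferase Setdb1 and the DNA methyltransferases Dnmt1 and Dnmt3b had it in all 8 lists. Stag1, a cohesin subunit, was the one gene of the 24 with H3K4me3 in every KO list and in no WT list. Ret, a receptor reported to partner these proteins, was marked in WT mESC and not in KO mESC, and in all 6 EB lists.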

How the data were processed

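Of 33 ChIP-seq samples, 25 lists of enriched regions were used, 1 library each, grouped by genotype, stage and target as in GEO's labels. The authors mapped reads to mm9 with Bowtie2 2.1.0, keeping 1 alignment per read, called histone domains against input with RSEG and factor summits with MACS, and deposited no pooled list. Domains were deposited with a signal (mean reads in the bins of the domain) and a score, which rises with the length in bins. The study's methods scale reads to the mapped total but do not say so of these columns, and the read totals of the libraries were not used here. For summits the deposited signal is the height in reads. Uhrf1 windows of 10 kb were deposited without a value. Domain calling keeps 1 alignment per read, so near-identical Pcdhb genes may share reads.

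Starts came from GENCODE vM1 on NCBIM37, where 0 regions ran past a chromosome end. Starts of one gene closer than 1000 bp were joined. A mark was called by at least 1 bp of overlap with 2 kb (H3K4me3) or 5 kb (H3K27me3, H3K9me3, Uhrf1) either side. Shares have Wilson 95% intervals, which cover counting only. KO and WT shares were compared over 4 stages by an exact sign-flip permutation test. Overlap calls were tested on simulated data. Python 3.11, numpy 2.4.6, scipy 1.17.1, pandas 2.3.3 and matplotlib 3.10.9 were used. The members and gene lists were chosen with earlier results of these data known. Singly named were the first and last starts of each subcluster, those marked or unmarked in a list where at most 10 of a subcluster were, and the start with the highest mean count in each H3K4me3 list. Pcdhb15, Pcdhb11 at single weeks, Stag1 and Ret were singled out after their values were seen. The C-type isoforms could not be told from the annotated names and are not named. Alternatives were other windows, domains at or above the median score, lists of equal number, coverage of at least 50% of the window, any transcript start, and leaving out a stage. No sequence is printed.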

Additional observations from a re-analysis of the deposited data

Results flagged for a closer look

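The difference in H3K4me3 between KO and WT had one sign in mESC and the other in all 3 EB weeks, which was not tested, since each stage had 1 library per genotype. It was -44.0 points in mESC over the 25 members, against 16.0 to 24.0 points in EBs. Over the 41 annotated starts it was -41.5 points, against 4.88, 14.6 and 24.4. Over the 22 Pcdhb starts it was -45.5 points, against 22.7, 9.09 and 22.7. These are the same domains counted in different ways, and the bin of domain calling also differed between mESC and EBs. Over all protein-coding genes KO minus WT was -6.21, -5.06, -1.24 and -0.425 points in stage order.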

How the results depend on the processing

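No paired analysis was possible because each group held 1 library, so no replicates could be paired across genotypes, and the sign-flip test pairs stages only. Of 129 alternative values for the 29 main results, 104 were counted as the same result. Many of the 104 are H3K27me3 counts in mESC and at weeks 2 and 3, or H3K9me3 counts, that stayed at 25 members. These members lie in long domains, so another window or overlap could hardly move the counts. The 104 also include mean KO minus WT shares of 20 and 0 points for H3K4me3, against 4.0 over all stages, and 0 for H3K27me3, against 6.0. The tally therefore says little about the H3K4me3 counts in EBs. With domains at or above the median score, members with H3K4me3 in WT and KO were, over weeks 1 to 3, 1 and 1, 3 and 6, and 1 and 5, and bivalent members 1 and 0, 3 and 6, and 1 and 5. With at least 50% of the window covered, members with H3K4me3 were 1 and 2, 3 and 7, and 2 and 6. Members near a Uhrf1 window were 1 with the start inside a window and 1 within 2 kb. Without the KO domains with a mean count below every WT domain, chosen after seeing the data, members with H3K27me3 were 15 in KO mESC and 0 in KO week 3, and with H3K9me3 3 in KO mESC (all but Pcdhb). These alternatives keep fewer domains, use a smaller window or ask for more overlap. Leaving out 1 stage gave a mean KO minus WT share of -2.67 to 20 points for H3K4me3, which turned negative without week 1 (-1.33) or week 3 (-2.67), and 0 to 8.0 for H3K27me3. Read totals were not used here, and depth limits each unmarked call.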
